A study of Mus musculus with 12 samples.

Results

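The genes described here are 10 NRF2 antioxidant genes, chosen by name as the transcription factor gene Nfe2l2, the gene of its repressor Keap1 and 8 of their classical target genes (Gclc, Gclm, Txnrd1, Srxn1, Gsr, Gpx2, Nqo1 and Hmox1). All 10 were found among the 22630 genes of the deposited tables, 1 row each, and all 10 were among the 17561 genes tested. RNA was measured by polyA sequencing in 12 subcutaneous tumors grown from KCip53-1, 1 mouse pancreatic cancer line whose alleles include Ptf1a-Cre, TREp53R270H and R26rtTa/rtTa, in which doxycycline (dox) switches on mutant p53 R270H through the rtTa protein. All groups share these alleles, and loss of wild-type Trp53 was described for such lines. NSG hosts, which are immunocompromised and 8 to 10 weeks old, received 500000 cells per tumor and a pair of tumors per mouse.

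The 4 no-dox tumors had no dox, the 4 plus-dox tumors had 36 days of dox at 0.2 g/l in 5% sucrose water, and the 4 off-dox tumors had 33 days of the same water and then 3 days after its removal. The groups are therefore 1 line, bulk unsorted tumors with host cells in them, and tumors of which some can share a mouse in an order that is not given. P-values measure the spread between these tumors and are too small where tumors share a mouse. In bulk tumors, fewer cells of a type and less RNA per cell cannot be told apart.

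NRF2 is the protein made from Nfe2l2, and KEAP1 holds it for destruction until oxidants or electrophiles modify KEAP1. NRF2 is thus set mostly by protein stability, and its activity is usually read from its targets, which make glutathione, recycle it, reduce thioredoxin and break down quinones and heme. NRF2 binds, with a small MAF partner, the antioxidant response element, whose core is commonly written TGACNNNGC.

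The places of this core in the start regions of the genes are shown first, since they are letters through which NRF2 is known to act. RefSeq windows from 250 bases before to 50 after a transcription start (build GRCm38.p6) were given for 7 of the 10 genes, Nfe2l2, Keap1, Gclm, Txnrd1, Srxn1, Gpx2 and Nqo1, and Gclc, Gsr and Hmox1 had no entry. Of these 7 genes, 4 held the core on either strand, against 14.0% of the 27025 genes with windows. The 4 matches follow, 5′ to 3′ on the strand of the gene, with the core in capitals. In Nfe2l2 it reads on the strand of the gene, beginning 240 bases before the start. In Gclm (134 bases before), Txnrd1 (92 bases before 1 of its 3 starts) and Srxn1 (28 bases after) it reads on the other strand.
Nfe2l2, chr2:75704869-75704913: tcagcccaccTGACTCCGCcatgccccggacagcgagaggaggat
Gclm, chr3:122245397-122245457: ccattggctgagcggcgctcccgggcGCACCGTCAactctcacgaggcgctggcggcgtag
Txnrd1, chr10:82859088-82859148: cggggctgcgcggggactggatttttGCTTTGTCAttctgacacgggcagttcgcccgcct
Srxn1, chr2:152105526-152105573: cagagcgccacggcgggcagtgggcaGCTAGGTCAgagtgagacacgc
Only this form of the core was searched, so other forms of the element in these windows are not marked. A match is a description of these letters and says nothing about binding in these tumors.

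Trp53, the gene that the transgene encodes, did not separate the groups. Its RPKM (mapped reads scaled to exonic length and library size by the authors) had a mean of 47.7 ± 7.27 without dox, 48.5 ± 6.44 on dox and 44.0 ± 1.72 after dox removal (SD, n = 4). Plus-dox and no-dox tumors differed by 0.04 on the log2 scale (SE 0.11). The counts of this gene, on mm9 chr11:69393861-69405375, thus showed no rise on dox. They do not establish the transgene's state, and the groups are named by their labels alone.

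Counted reads on genes ran from 19845923 to 33137609 per tumor, and apart from Nqo1 and Gpx2 every gene of the set had at least 634 of them in each tumor. Genes took 88.4% to 89.4% of mapped reads in no-dox tumors, 82.2% to 87.1% in plus-dox and 81.1% to 85.8% in off-dox tumors, so this share was higher in every no-dox tumor. Epithelial markers (10 genes) summed to 2337 to 3137 RPKM without dox, 1384 to 2071 on dox and 1093 to 2694 after removal, and all 10 had a mean above 1 RPKM. All of these values lie beside each comparison with no-dox tumors below, and their part in the results was not tested. Lymphocyte markers were near 0, with sums of 0.5 to 3.6 RPKM over 7 genes.

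None of the 10 genes was called in any of the 3 comparisons. A gene was called where its adjusted p was under 0.1 (edgeR quasi-likelihood test, Benjamini-Hochberg over all genes tested) and it also changed by over 1.5-fold, had a mean above 0.25 RPKM in the tumors compared and was longer than 250 bp. Of all genes tested, 0% were called between plus-dox and no-dox tumors, 1.34% between off-dox and no-dox tumors and 0% between off-dox and plus-dox tumors. Behind the 1.34% were 235 genes, a count that ran from 0 to 789 when 1 tumor was left out. DESeq2, run as another tool, called 0 of the 10 genes in each comparison as well. Over all genes DESeq2 called more than edgeR, with 128, 615 and 6 genes in the same order (without moderated fold changes). At an unadjusted p under 0.05 by edgeR, the count for the set was 1 of 10, Hmox1, for plus-dox against no-dox tumors. There 13.7% of all genes had such a p. It was 0 of 10 for off-dox against no-dox tumors, where the share over all genes was 20.4%, and 0 of 10 for off-dox against plus-dox tumors, where it was 3.06%.

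The estimates lay mostly on the lower side, with medians near 0. The 10 genes were chosen with earlier results of these data known. Between plus-dox and no-dox tumors 9 of 10 estimates were below 0 (median -0.10 on the log2 scale), beside 48.6% of all genes tested and a median over them of 0.01. Between off-dox and no-dox tumors 8 of 10 were below 0, with a median of -0.12, beside 49.3% and 0.01. These comparisons share the no-dox tumors. Between off-dox and plus-dox tumors 7 of 10 were below 0, with a median of -0.04, beside 50.1% of all genes. Among the genes tested with a mean above 1 RPKM, which 9 of the 10 are, 54.7%, 55.0% and 50.7% were below 0 in the same order, with medians of -0.03, -0.04 and 0.00.

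For some genes the confidence intervals kept the change within 1.5-fold. These intervals come from the same fits as the p-values and are too narrow where tumors share a mouse. The 95% confidence intervals of Nfe2l2, Keap1, Gclm, Txnrd1 and Srxn1 (5 of 10) lay within 1.5-fold in both directions in each comparison with no-dox tumors. Those of the same genes and Gsr (6 of 10) did between off-dox and plus-dox tumors. Some came near that limit, as for Srxn1 in off-dox tumors, which reached down to 0.68 times the no-dox level. Intervals of Gclc, Gpx2, Nqo1 and Hmox1 reached beyond 1.5-fold in all 3 comparisons, and that of Gsr did in both with no-dox tumors, so with 4 tumors per group a change of that size could be neither shown nor excluded for these genes.

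**Figure D1:**
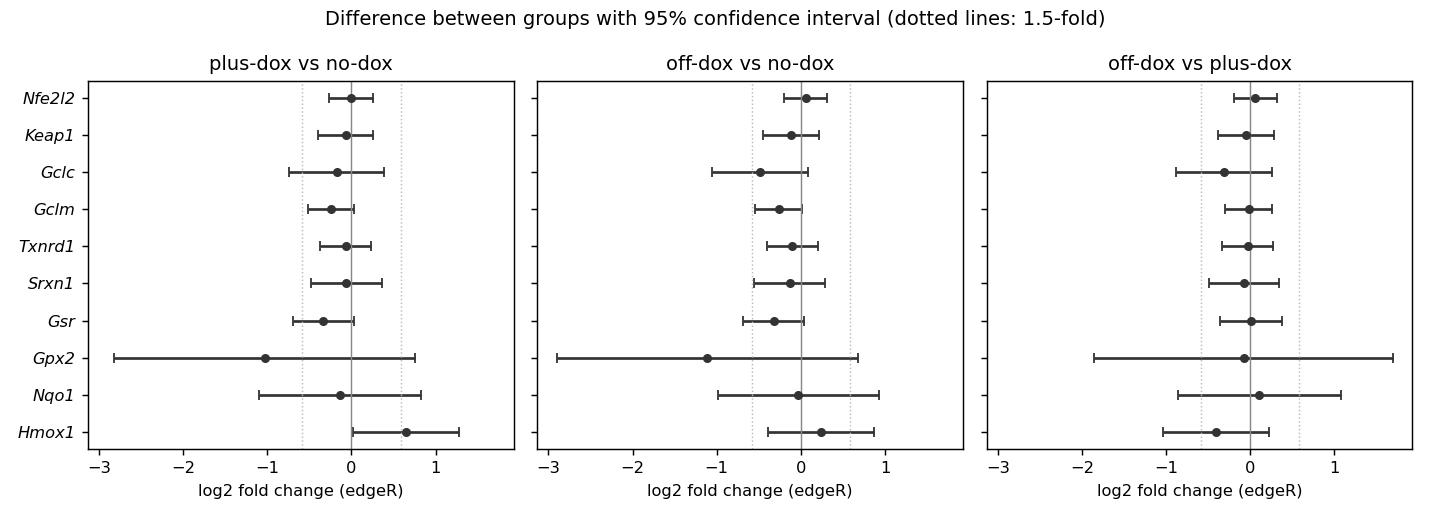
Log2 fold change of each gene (x axis, edgeR, first group minus second) with its 95% confidence interval, 1 panel per comparison of 4 with 4 tumors, and dotted lines at 1.5-fold. Of the intervals, that of Hmox1 between plus-dox and no-dox tumors (0.02 to 1.28) leaves out 0, and those of Gpx2 are the widest in each panel.

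Of the regulators, Nfe2l2 had the highest mean of the set over the 12 tumors, though Gpx2 was higher in no-dox tumors and Hmox1 in plus-dox tumors by group mean, and its level hardly varied. The 4 no-dox tumors had 47.6, 55.1, 52.5 and 59.0 RPKM, the plus-dox tumors 52.7, 59.3, 51.8 and 48.3, and the off-dox tumors 56.9, 59.6, 46.6 and 55.4. The groups overlapped throughout, with a difference of 0.00 (SE 0.12) between plus-dox and no-dox tumors and of 0.06 (SE 0.12) between off-dox and no-dox tumors on the log2 scale. Its highest tumor was 1.28 times its lowest, and 96.6% of the 12700 genes with a mean above 1 RPKM had a greater ratio. Nfe2l2 lies on mm9 chr2:75513576-75542698, on the minus strand.

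Keap1, which encodes the substrate adaptor that hands NRF2 to a ubiquitin ligase, lay lower, between 8.44 RPKM in off-dox tumor 2 and 14.0 in no-dox tumor 4. Group means were 12.3 ± 1.73, 11.6 ± 1.10 and 11.1 ± 2.28 RPKM in no-dox, plus-dox and off-dox tumors (SD, n = 4). Neither comparison with no-dox tumors passed the test, with differences of -0.07 (SE 0.15) and -0.12 (SE 0.15) on the log2 scale.

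Gclc encodes the catalytic subunit of glutamate-cysteine ligase, the rate-limiting enzyme of glutathione synthesis. No-dox tumors had 31.2, 25.5, 21.9 and 29.4 RPKM, plus-dox tumors 35.0, 12.4, 17.3 and 31.4, and off-dox tumors 21.5, 20.9, 18.3 and 15.0. Every off-dox tumor was below every no-dox tumor, narrowly at the nearest pair, while the plus-dox group held both the highest and the lowest tumor of all 12. The off-dox difference was -0.49 on the log2 scale (SE 0.26, 0.71-fold, interval 0.48 to 1.06), with an adjusted p = 0.31 by edgeR. An exact two-sided permutation test gave p = 0.029, the smallest that 70 arrangements of 4 with 4 tumors allow.

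Gclc was the 1 of 10 genes for which the ranges of off-dox and no-dox tumors were apart, and 11.5% of all genes tested behaved so. Between plus-dox and no-dox tumors 0 of 10 were without overlap (8.86% of all genes), and between off-dox and plus-dox tumors 0 of 10 (1.4% of all genes). The plus-dox estimate of Gclc, -0.17 (SE 0.26), turned to 0.04 without plus-dox replicate 2.

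Gclm, the modifier subunit of the same ligase, averaged 24.1 ± 2.90 RPKM in no-dox tumors, 20.2 ± 2.82 with dox and 19.7 ± 2.70 once dox was off (SD, n = 4). Of the no-dox tumors, 3 had 25.6, 25.3 and 25.8 RPKM, above each plus-dox and off-dox tumor, and no-dox tumor 3 had 19.7. Differences from no-dox were -0.24 (SE 0.13, adjusted p = 0.41 by edgeR) in plus-dox and -0.26 (SE 0.13, adjusted p = 0.26) in off-dox tumors on the log2 scale.

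Txnrd1, the cytosolic thioredoxin reductase, and Srxn1, which repairs overoxidized peroxiredoxins, showed no group pattern. Txnrd1 ran from 25.3 RPKM in off-dox tumor 3 to 41.2 in no-dox tumor 2, and its group means were 35.1 ± 4.68, 33.1 ± 2.79 and 32.0 ± 5.22 in no-dox, plus-dox and off-dox tumors (SD, n = 4). Srxn1 ran from 9.94 RPKM in off-dox tumor 3 to 16.5 in no-dox tumor 3, with group means of 12.9 ± 2.57, 12.3 ± 2.50 and 11.6 ± 1.96. Differences from no-dox tumors lay between -0.06 and -0.13 on the log2 scale for both genes (SE 0.14 for Txnrd1, 0.19 for Srxn1). Txnrd1 shares 1304 bp of its span with Eid3 on the same strand, which had a mean of 0.515 RPKM.

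Gsr encodes glutathione reductase, which returns oxidized glutathione to its reduced form with NADPH. No-dox tumors had 39.2, 50.6, 40.9 and 43.1 RPKM of it, plus-dox tumors 38.4, 26.3, 39.0 and 33.2, and off-dox tumors 39.5, 39.2, 24.9 and 32.5. All plus-dox tumors were below all no-dox tumors on this scale, by a narrow margin, but the groups overlapped in log2 CPM scaled by TMM factors, and off-dox tumors 1 and 2 reached the lowest no-dox tumor. Estimates were -0.33 (SE 0.17) in plus-dox and -0.32 (SE 0.17) in off-dox tumors on the log2 scale, with adjusted p = 0.40 and 0.30 by edgeR.

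Gpx2, a glutathione peroxidase typical of gut and other epithelia, was the gene of the set that varied most between tumors. No-dox tumors had 76.3, 111.2, 56.4 and 52.9 RPKM, plus-dox tumors 80.7, 1.43, 25.2 and 38.1, and off-dox tumors 65.7, 37.8, 24.9 and 6.81. Tumors 2 of plus-dox and 4 of off-dox stood far below the rest, with 1.43 and 6.81 RPKM, and plus-dox tumor 1 and off-dox tumor 1 lay within the no-dox range. The lowest value rests on 50 counted reads, against up to 3572 in other tumors.

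The highest Gpx2 level was 77.8 times the lowest, and 173 of the 12700 genes with a mean above 1 RPKM (1.36%) spanned a greater ratio, beside a median ratio of 1.76 over these genes. Means were 0.49 times the no-dox level in plus-dox tumors (interval 0.14 to 1.69) and 0.46 times in off-dox tumors (interval 0.13 to 1.60) in the edgeR fit, with adjusted p = 0.56 and 0.46. Leaving out plus-dox tumor 2 moved the plus-dox estimate from -1.03 to -0.63 on the log2 scale, and leaving out plus-dox tumor 1 moved it to -1.76. For off-dox tumors the estimate of -1.11 became -0.77 without off-dox tumor 4 and -1.65 without off-dox tumor 1.

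**Figure D2:**
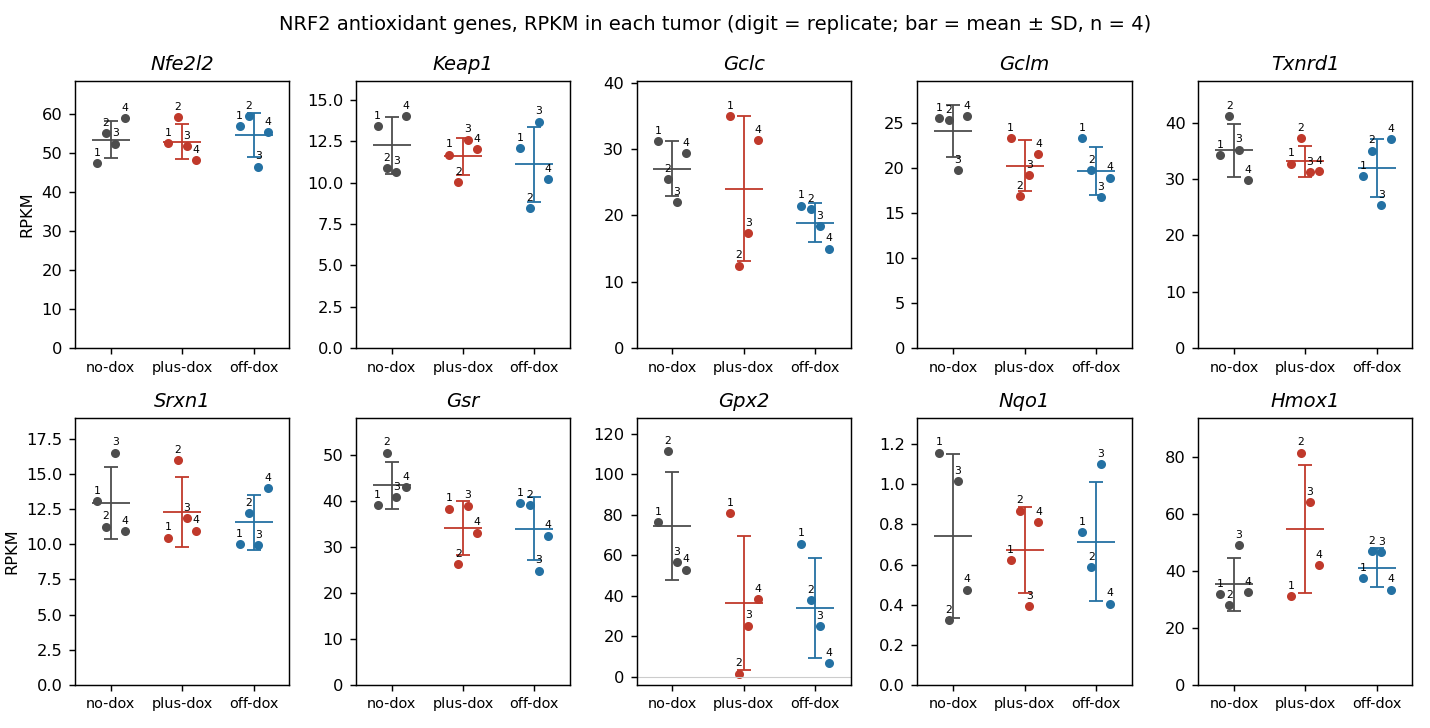
RPKM (y axis, from 0) of each of the 10 genes in each tumor (points, with the replicate number), by group, with bars for the mean ± SD of 4 tumors. Nfe2l2 lies between 46.6 and 59.6 RPKM in all tumors, whereas Gpx2 falls to 1.43 in plus-dox tumor 2 and 6.81 in off-dox tumor 4.

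Nqo1, the quinone reductase most often used as an NRF2 readout, was hardly expressed. It reached 1.16, 0.32, 1.02 and 0.47 RPKM in no-dox tumors, 0.62, 0.87, 0.39 and 0.81 with dox, and 0.76, 0.59, 1.10 and 0.41 once dox was off, from 15 to 61 counted reads. The 3 groups overlapped, and the plus-dox tumors spanned the narrowest range. The mean over 12 tumors was 0.71 RPKM, and 75.3% of the genes tested had a higher mean. At this depth a change of Nqo1 in plus-dox tumors was bounded between 0.47 and 1.77 times the no-dox level. Each of the other 9 members had a higher mean than Nqo1, by 10.9 RPKM or more.

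Hmox1 encodes heme oxygenase 1, which opens the heme ring and is also high in macrophages that take up red cells. Without dox its RPKM was 31.8, 28.0, 49.0 and 32.5, on dox it was 31.0, 81.5, 64.2 and 42.0, and after removal it was 37.3, 47.0, 46.5 and 33.4. Plus-dox tumors 2 and 3 were the highest of all 12, while plus-dox tumor 1 lay among the no-dox tumors. The plus-dox difference was 0.65 on the log2 scale (SE 0.29, 1.57-fold, interval 1.01 to 2.42), with an adjusted p = 0.36 by edgeR, and the exact two-sided permutation test over 4 with 4 tumors gave p = 0.23. Without plus-dox tumor 2 the difference was 0.39.

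Some markers of host cells were high in these tumors and others were not. Plus-dox tumor 2 had the highest fibroblast sum (9 genes, 3200 RPKM, against 1196 to 2411 in the other tumors), and plus-dox tumor 3 the next highest. Endothelial markers (6 genes) summed to 116 RPKM in plus-dox tumor 2 and to 26.1 to 49.1 in the others. Macrophage markers (7 of 8 genes measured) summed to 2764 and 2392 RPKM in plus-dox tumors 2 and 3, within the no-dox range of 2006 to 3070, whereas the neutrophil sum (5 genes, 57.0 and 51.2 RPKM, against 23.2 to 49.5 elsewhere) and the low erythroid sum (6 genes, Hba-a1 and Hba-a2 at 0, 4.94 and 3.44 RPKM, against 0.634 to 2.89) were highest in these tumors. Lyz2, C1qa, C1qb and C1qc dominate the macrophage sum. Cd68 of this list was highest in plus-dox tumor 2 (92.9 RPKM, against 49.2 to 72.8 in the other tumors), and no other gene of the list was highest there. The part of these cells in the Hmox1 level was not tested.

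Ordered by mean RPKM over the 12 tumors, the set ran from Nfe2l2 (53.7 ± 4.59) through Gpx2 (48.1 ± 32.2), Hmox1 (43.7 ± 15.7), Gsr (37.3 ± 7.11), Txnrd1 (33.4 ± 4.17), Gclc (23.3 ± 7.17), Gclm (21.3 ± 3.27), Srxn1 (12.3 ± 2.22) and Keap1 (11.7 ± 1.68) to Nqo1 (0.71 ± 0.29, SD, n = 12). RPKM is scaled to exonic length, so levels of different genes can be set side by side. Of the 9 neighbouring pairs, 3 lay further apart than the larger SD of the pair, Txnrd1 over Gclc, Gclm over Srxn1 and Keap1 over Nqo1. Within the first 5 genes, from Nfe2l2 to Txnrd1, no neighbours lay further apart than that.

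The groups accounted for 0.39% (Nqo1) to 38.3% (Gclm) of the sum of squares of log2 CPM over the 12 tumors, and the rest lay between tumors of the same group. Plus-dox tumor 2 had the lowest Gclc and Gpx2 and the highest Hmox1, and off-dox tumor 3 had the lowest Nfe2l2, Gclm, Txnrd1, Srxn1 and Gsr (5 of 10) in RPKM. In log2 CPM the lowest Nfe2l2 tumor was no-dox tumor 1 instead. In off-dox tumor 3 the epithelial sum was the lowest of the 12 tumors (1093 RPKM), and the sums of skeletal muscle markers (6 genes, 1123 RPKM) and macrophage markers (3956 RPKM) were the highest. Their part in these levels was not tested.

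**Figure D3:**
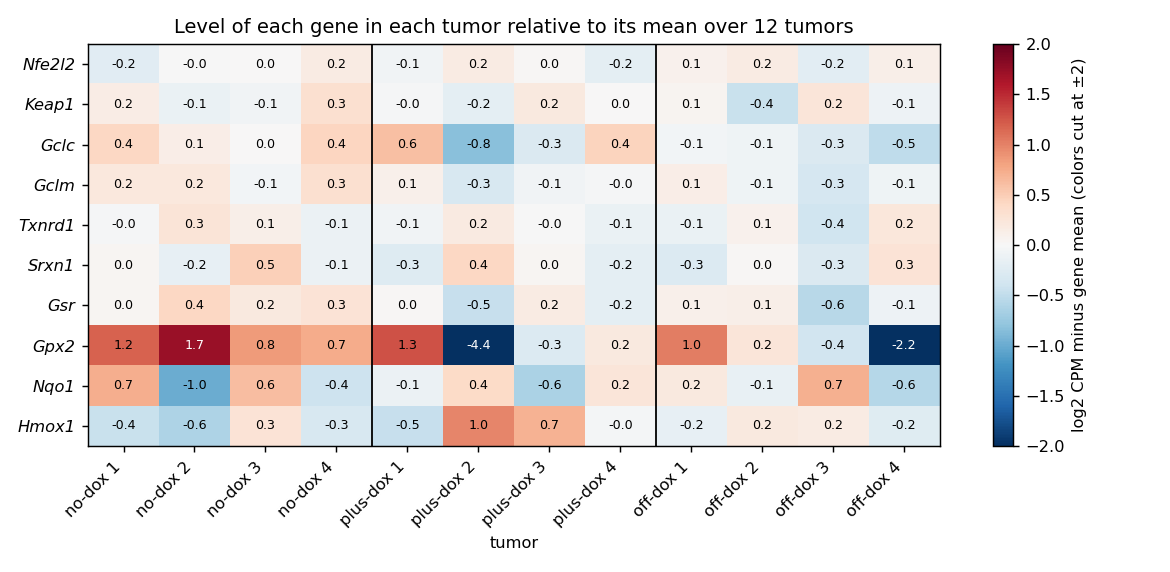
Log2 CPM of each gene (rows) in each tumor (columns) minus the mean of that gene over the 12 tumors, with the value in each cell and colors cut at 2 in either direction. Gpx2 in plus-dox tumor 2 (-4.42) and off-dox tumor 4 (-2.16) lies furthest from its mean, and Nfe2l2 stays near 0.

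Genes with the most similar course over the 12 tumors were looked up among the 12694 genes that had a mean above 1 RPKM and were tested, by Pearson's r of log2 CPM. Gpx2 was nearest to Tm4sf20 (r = 0.99) and to the glutathione S-transferase gene Gsta3 (r = 0.99), and r was 0.96 for both after leaving out plus-dox tumor 2 and off-dox tumor 4. Gclm was nearest to Cd24a (r = 0.98), Srxn1 to Gtf2f2 (0.98), Gsr to Tgoln (0.95), Gclc to Echdc2 (0.94), Hmox1 to Zdhhc14 (0.93) and Hspa12b (0.93), Txnrd1 to Xrn2 (0.93), Nfe2l2 to AI848100 (0.91), Keap1 to Wtip (0.90) and Nqo1 to Cib2 (0.85). Among these nearest genes was no other gene of the set. The values share libraries and depth, each is the highest of many, and they are given as a description.

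Plus-dox tumor 2 and off-dox tumor 4 were also the lowest pair of the 12 tumors for 9 of 11 glutathione transferase genes, with Gstp1 and Mgst2 as the others. The 11 are those tested from the pathway lists below. Among the 9, Gsta1 rests on 1 counted read in each of these tumors, and on 1 in off-dox tumor 2 as well. This pair was picked for its low Gpx2. The share of all genes with the same lowest pair was not counted, for these genes or for the epithelial markers below. Gsta3 had 1.52 RPKM in plus-dox tumor 2 and 6.50 in off-dox tumor 4, against 25.2 to 142.8 in the other 10 tumors. Gsta4, chosen after its values were seen, had 6.72 and 22.8 RPKM there, against 81.7 to 266.4 elsewhere. Nfe2l2, at 59.3 and 55.4 RPKM, and Txnrd1, at 37.2 and 37.0, were not low in these tumors. Mgst2 reached 34.6 RPKM in off-dox tumor 4, above all but 1 other tumor.

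Epithelial markers moved with this pattern in part. For 5 of the 10, Epcam, Cdh1, Krt7, Cldn7 and Elf3, the same pair of tumors was the lowest of the 12. Epcam had 7.76 RPKM in plus-dox tumor 2 and 40.9 in off-dox tumor 4, against 72.3 to 388.3 elsewhere. Cdh1 had 22.1 and 42.1 RPKM there, against 57.5 to 190.8. The sum of the 10 markers, which Krt8 and Krt18 dominate, was 1384 and 1588 RPKM in these tumors, with Krt18 at 607.7 and 752.3. Off-dox tumor 3 had the lowest sum and 24.9 RPKM of Gpx2. The part of epithelial cells in the Gpx2 level was not tested.

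**Figure D4:**
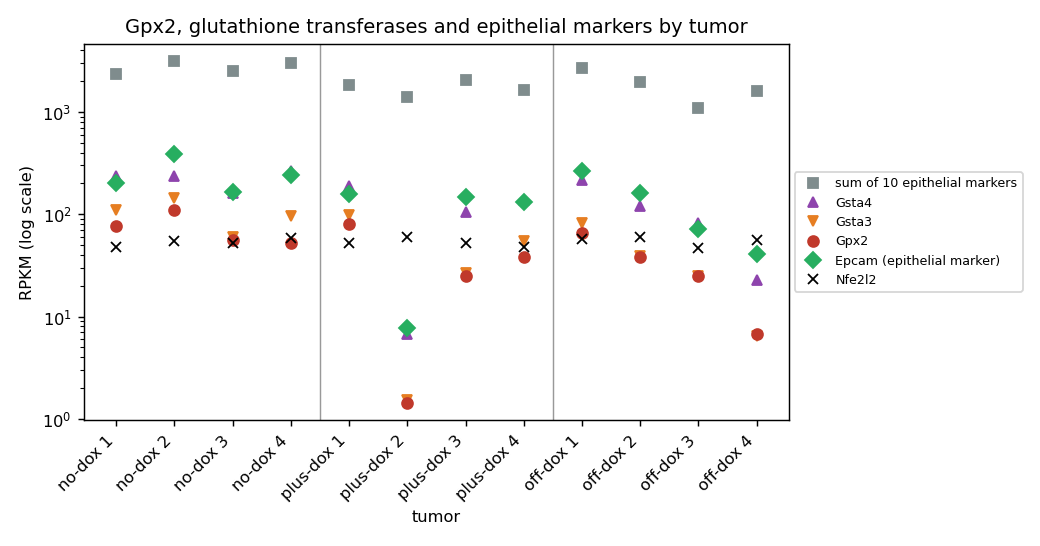
RPKM on a log scale (y axis) of Gpx2, Gsta3, Gsta4, Nfe2l2 and the epithelial marker Epcam and the summed RPKM of 10 epithelial markers in each of the 12 tumors (x axis). Gpx2, Gsta3 and Gsta4 are lowest in plus-dox tumor 2 (1.43, 1.52 and 6.72 RPKM) and off-dox tumor 4, as is Epcam (7.76 and 40.9 RPKM), while Nfe2l2 is not.

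Beyond the 10 genes, 74 genes of the surrounding pathways were followed in 8 lists, of which 72 were tested (all but Gsta2 and Abcc2). These lists were also chosen with earlier results of these data known. Between plus-dox and no-dox tumors 0 of 72 were called and 52 estimates were below 0, with a median of -0.19 on the log2 scale. Between off-dox and no-dox tumors 1 of 72 was called, Aldh3a1, which was lower (0.307% of all genes were called lower), and 55 estimates were below 0, the median being -0.21. Between off-dox and plus-dox tumors 0 of 72 were called, with a median of -0.03. The medians over all genes tested were 0.01, 0.01 and 0.00 in the same order. Of these genes, 0%, 1.34% and 0% were called, and 48.6%, 49.3% and 50.1% had estimates below 0. Among those with a mean above 1 RPKM, 54.7%, 55.0% and 50.7% were below 0, with medians of -0.03, -0.04 and -0.003. The groups did not overlap in log2 CPM for 7, 10 and 1 of the 72 genes in the same order. Over all genes tested these shares were 8.86%, 11.5% and 1.4%.

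Aldh3a1 encodes an aldehyde dehydrogenase that removes lipid aldehydes. No-dox tumors held 7.05, 2.85, 2.97 and 3.72 RPKM of it, plus-dox tumors 4.15, 1.91, 1.55 and 5.17, and off-dox tumors 1.27, 1.22, 2.11 and 1.09. Each off-dox tumor was below each no-dox tumor, with a difference of -1.51 on the log2 scale (SE 0.41, 0.35-fold, interval 0.19 to 0.65) and an adjusted p = 0.097 by edgeR. The call was lost in 10 of the 12 fits that each left out 1 tumor, all but those without plus-dox tumor 2 or off-dox tumor 1, and the estimates then ran from -1.76 to -1.15.

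With no limit on the fold, 5 of the 72 genes had an adjusted p under 0.1 by edgeR in off-dox against no-dox tumors, all lower, where 1.38% of all genes were lower at that limit. These were Aldh3a1 and 4 genes picked for this p, the superoxide dismutase Sod1 (-0.54, SE 0.13, adjusted p = 0.087), the catalase gene Cat (-0.41, SE 0.09, adjusted p = 0.083), the mitochondrial thioredoxin Txn2 (-0.39, SE 0.09, adjusted p = 0.083) and the NADPH-making isocitrate dehydrogenase Idh1 (-0.48, SE 0.13, adjusted p = 0.097). Cat had 33.6, 31.8, 32.8 and 32.5 RPKM in no-dox and 26.4, 24.9, 23.1 and 22.0 in off-dox tumors. Sod1 ran from 246.5 to 278.1 RPKM without dox, from 177.6 to 238.7 on dox and from 149.4 to 223.7 after removal. In each of these 4 genes all off-dox tumors lay below all no-dox tumors, and the change was under 1.5-fold. The 4 were picked for their p, so this is no separate result, and 11.5% of all genes tested had no overlap there. When 1 tumor was left out, the adjusted p rose to 0.1 or more in 9 of 12 fits for Sod1, Cat and Txn2 (all but those without off-dox tumor 1 or plus-dox tumors 1 or 2) and in 10 of 12 for Idh1 (there also without plus-dox tumor 1), up to 0.22.

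Among the 8 regulators and partners of NRF2, 0 were called in any comparison. Sqstm1, a receptor that can tie up KEAP1, was the most abundant of them and ran from 132.7 to 185.1 RPKM. Mafg, a small MAF partner of NRF2, had the largest off-dox estimate in this list, 0.41 (SE 0.12, adjusted p = 0.11 by edgeR). It had 13.1 to 15.9 RPKM in no-dox and 17.2 to 20.3 in off-dox tumors. These did not overlap, as was so for 11.5% of all genes tested.

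Of the list of 5 genes for glutathione synthesis and cystine supply 0 were called. Slc3a2, the heavy chain of the cystine transporter, was the most abundant (34.2 to 46.9 RPKM). Ggt1, which breaks down glutathione outside the cell, had 4.47, 17.2, 4.52 and 6.98 RPKM in no-dox tumors, 4.21, 0.455, 3.61 and 2.82 on dox, and 6.51, 8.81, 2.21 and 2.60 after removal. All plus-dox tumors were below all no-dox tumors, with an estimate of -1.56 (SE 0.66, adjusted p = 0.35 by edgeR), and the off-dox estimate was -0.69 (SE 0.64).

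In the list of peroxidases, glutaredoxins, transferases and export pumps, 20 of 21 off-dox estimates were below 0, with a median of -0.33. Beside them, 49.3% of all genes tested and 55.0% of those with a mean above 1 RPKM were below 0 against no-dox tumors. Of this list 0 were called in any comparison. Gpx1, the most abundant, ran from 308.8 to 567.1 RPKM over the 12 tumors. Gsta3 had the largest off-dox estimate, -1.40 (SE 0.88, adjusted p = 0.38 by edgeR).

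Thioredoxins and peroxiredoxins (12 genes) held 0 called genes. Prdx1, the most abundant, ran from 804.8 to 983.5 RPKM without dox, 520.0 to 846.4 on dox and 614.9 to 820.2 after removal. Txnip, which binds and blocks thioredoxin, had an off-dox estimate of -0.47 (SE 0.41), and its lowest tumors were off-dox tumor 4 (64.9 RPKM) and plus-dox tumor 2 (65.9 RPKM).

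Apart from Aldh3a1, none of the 9 genes of quinone and xenobiotic metabolism was called, and Ugdh, the most abundant, ran from 41.2 to 85.8 RPKM with estimates of 0.16 and 0.18 (SE 0.26) against no-dox tumors. Heme and iron handling (9 genes) and NADPH supply (4 genes) held 0 called genes. Ftl1, the ferritin light chain, ran from 1179 to 1842 RPKM and is uncertain because near-identical copies exist in the genome. Slc40a1, the iron exporter, had an off-dox estimate of -0.85 (SE 0.46), and was lowest in plus-dox tumor 2 (2.87 RPKM) and off-dox tumor 4 (3.34 RPKM). Of the NADPH genes, Pgd was the most abundant (42.7 to 69.6 RPKM), and Me1 had the largest off-dox estimate, -0.61 (SE 0.30, adjusted p = 0.27 by edgeR).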

How the data were processed

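RNA of 12 tumors was analysed from 1 deposited table per tumor. Per the labels and the study's methods, libraries were polyA-selected and not strand-specific. The authors mapped the reads to mm9 with TopHat (version 1.4.1 in the submitters' processing notes) and counted them over unambiguous RefSeq exon spans without regard to strand. The deposited expected counts are not normalized, and the deposited RPKM values were scaled by the authors to exonic length and mapped reads. How reads with several positions or duplicate reads were handled is not given in the sources used here.

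Expected counts were rounded and tested with edgeR 4.0.16 (TMM, at least 10 counts summed over the 12 tumors, quasi-likelihood test, 1 fit of the 3 groups, Benjamini-Hochberg over 17561 genes). The limits for a call follow the study's methods, applied to edgeR's p-values instead of those of DESeq2. Standard errors are the absolute log2 fold change over the square root of F. DESeq2 1.42.0, other filters, RLE factors, a replicate block and leaving out tumors were alternatives. Log2 CPM used a prior count of 2. The fits were tested on simulated data with independent tumors, where changes larger than any member's estimate were planted in well-counted genes. That test does not bear on small changes, on Nqo1 or on tumors that share a mouse. Depth, 19845923 to 33137609 counted reads, limits precision for Nqo1.

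The members and lists were chosen with earlier results of these data known. Other genes named are, for each pathway list, the most abundant gene, the gene with the largest off-dox change among those with a mean above 1 RPKM and every called gene, and for each member the 2 genes with the highest r. Gsta1, Gsta4, Gstp1, Mgst2, Cat, Txn2, Idh1, Chac1, Slc7a11 and single epithelial and macrophage markers were named after their values were seen. 1 allele that all groups share is not reported here.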

Additional observations from a re-analysis of the deposited data

Results flagged for a closer look

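Within groups of 4 tumors, 1 of 30 sets of values (10 genes in 3 groups) held a tumor far from the others by Dixon's ratio, where chance flags about 1 in 20. This was Gclm in no-dox tumor 3, at 19.74 RPKM against 25.3 to 25.8 in the other no-dox tumors.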

How the results depend on the processing

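The count of called genes of the set was 0 in all 63 alternative values (3 comparisons), and none of the 600 alternative fold changes of members gained a call. Direction was kept in 556 of these 600 and turned in 44. The cause was not tested. The call of Aldh3a1 was lost in 13 of its 20 alternatives.

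Counts over all genes moved more. Against counts of 0, 235 and 0 (plus-dox with no-dox, off-dox with no-dox, off-dox with plus-dox), DESeq2 called 128, 615 and 6 without and 90, 396 and 4 with moderated fold changes. The off-dox against no-dox count was 122 with no count filter, 365 with at least 10 counts in every tumor, 3 with only the 8 tumors compared, 0 at an adjusted p under 0.05 and 471 without both plus-dox tumor 2 and off-dox tumor 4. Leaving out 1 tumor gave 0 to 3, 0 to 789 and 0 to 1, with 3 without plus-dox tumor 1 in the first comparison and 1 without off-dox tumor 1 in the last. In the off-dox against no-dox comparison it gave 789 without off-dox tumor 1, 19 without plus-dox tumor 3, 1 without no-dox tumor 3 and 0 without no-dox tumors 1, 2 or 4, plus-dox tumor 4 or off-dox tumors 2, 3 or 4.

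Shared replicate numbers showed no pairing on average (mean r of deviations -0.088 over 12 same-numbered pairs, 0.043 over 36 others). The same-numbered pairs ran from -0.449 to 0.566, with 2 above 0.1, and these values cannot exclude that some tumors are paired. With the replicate block the off-dox against no-dox count was 0, Nqo1 differences were 0.029, 0.0092 and -0.020, and that of Gsr between off-dox and plus-dox tumors was -0.00017. No member's call changed.

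With at least 10 counts in every tumor the plus-dox difference of Nfe2l2 was 0.0086. Without both plus-dox tumor 2 and off-dox tumor 4 the difference was 0.035 for Gclc (plus-dox with no-dox), 0.163 for Nqo1 (off-dox with no-dox) and -0.082 for Gsr (off-dox with plus-dox). Leaving out 1 tumor or both of these, plus-dox minus no-dox ran from -0.072 to 0.062 for Nfe2l2, -0.141 to 0.021 for Keap1, -0.395 to 0.038 for Gclc, -0.219 to 0.103 for Srxn1 and -0.39 to 0.137 for Nqo1. Off-dox minus no-dox ran from -0.0090 to 0.132 for Nfe2l2, -0.198 to 0.0030 for Txnrd1, -0.259 to 0.032 for Srxn1 and -0.308 to 0.249 for Nqo1. Off-dox minus plus-dox ran from -0.155 to 0.066 for Keap1, -0.099 to 0.057 for Gclm, -0.129 to 0.073 for Txnrd1, -0.200 to 0.083 for Srxn1, -0.095 to 0.138 for Gsr, -0.614 to 0.650 for Gpx2 and -0.171 to 0.466 for Nqo1. Depth limits Nqo1, which had 15 to 61 reads.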
